A study of Homo sapiens with 6 samples.

Results

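Amino acid transporter genes were followed in DLD1, an established line from a human colorectal adenocarcinoma. The cells carried lentivirus for a short hairpin RNA (shRNA) that targets CDKL1, or for a control shRNA. They were chosen by symbol, as every gene of the solute carrier families SLC1A, SLC3A, SLC6A, SLC7A, SLC36A, SLC38A and SLC43A read by a probe set with exactly 1 annotated gene, and each gene was read from its brightest such probe set. This gave 59 of the 18132 genes measured. CDKL1 is a serine/threonine kinase related to the cyclin-dependent kinases, and each group (CDKL1 shRNA, control shRNA) held 3 samples, each hybridised to 1 Affymetrix array. Both groups were DLD1 cells that had received a lentivirus, and no uninfected cells were analysed here. How many hairpins were used, and whether the infected cells were pools or clones, is not stated in the labels. The submitters describe 3 independent samples for each shRNA but name no separate infection or culture, and p-values therefore measure only the spread among these arrays, part of which may be technical.

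Amino acid transporters carry amino acids across the plasma membrane and the membranes of organelles, often coupled to sodium or protons or in exchange for another amino acid. The SLC7 light chains need a heavy chain of the SLC3 family to reach the cell surface. In colon cancer cells such carriers supply glutamine, cystine, leucine and arginine for growth and redox defence, and lysosomal members report amino acid supply to the growth kinase complex mTORC1. The SLC6 family also holds carriers for neurotransmitters, creatine and taurine, and SLC43A3 carries purine bases.

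The values are log2 expression values normalised between arrays by RMA, and array medians lay between 6.64 and 6.70. CDKL1 itself was at 4.25, 4.20 and 4.08 in CDKL1 shRNA arrays, against 4.51, 4.42 and 4.17 in control arrays. The log2 change was -0.19 (limma, adjusted p = 0.219), the groups overlapped, and the values lay within the range of background controls (2.97 to 4.92, over probes of 10 to 16 G or C bases), so this probe set could not check the knockdown. Without control shRNA replicate 3 the change was -0.29 and passed (limma, adjusted p = 0.0489). Without each of the other single arrays it did not pass (limma, adjusted p = 0.244 to 0.459). Colorectal epithelial markers averaged 9.52 to 9.58 in CDKL1 shRNA arrays and 9.56 to 9.60 in control arrays over 14 measured genes, of which KRT20 rose by 0.52 and VIL1 fell by 0.57 (limma, adjusted p = 7.46e-04 and adjusted p = 0.019). They stood against fibroblast markers at 4.66 to 4.81 and 4.67 to 4.81 over 8 genes, 4 of them within the background range. Of 7 leukocyte markers 2 rose, the macrophage genes CD163 and CD68 (log2 changes 0.65 and 0.39), with list means of 5.11 to 5.16 in CDKL1 shRNA arrays and 5.00 to 5.04 in control arrays, and CD163 was one of 3 within the background range. The other 5 did not pass, and the median log2 change over the 7 leukocyte markers was -0.04. The macrophage markers' part in the results was not tested. A sign of RNA quality differed: the ACTB controls read 3' above 5' by a log2 difference of 1.60 ± 0.115 in CDKL1 shRNA arrays and 1.40 ± 0.013 in control arrays (SD, n = 3 each, exact two-sided permutation p = 0.1, the smallest possible with these arrays). CDKL1 shRNA replicate 2 had the highest value, 1.73. The GAPDH controls differed in the same direction, at 0.275 ± 0.026 in CDKL1 shRNA arrays and 0.203 ± 0.018 in control arrays (SD, n = 3 each, exact two-sided permutation p = 0.1). With this ACTB difference in the fit as a covariate, 0 of the 59 transporter genes passed (limma, lowest adjusted p = 0.0818) and 10 had an unadjusted p under 0.05. In that fit the 12 genes called below kept their direction, while the median SE over the transporter genes was 0.107, against 0.0614 without the covariate.

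Of the 59 amino acid transporter genes, 7 rose and 5 fell in CDKL1 shRNA arrays, and 47 did not pass the test (limma over all genes, two-sided, Benjamini-Hochberg adjusted p under 0.05). The genes that rose were the heavy chain gene SLC3A2, the cystine/glutamate exchanger gene SLC7A11, the SLC36 family genes SLC36A1 and SLC36A4, and SLC38A9, SLC38A10 and SLC38A12. Those that fell were the glutamate transporter gene SLC1A1, the proline transporter gene SLC6A20, and SLC7A1, SLC7A2 and SLC7A7, whose proteins carry cationic amino acids. Over all genes 16.8% were called, 8.97% higher and 7.79% lower, against 20.3% of the transporter genes, 11.9% higher and 8.47% lower, so the share called was close to that of the array as a whole. The median log2 change was -0.04 over the 59 genes and -0.01 over all 18132 genes. Changes were small: the called transporter genes had a median fold of 1.23 in either direction, against 1.21 for all called genes, and SLC7A7 was the only transporter gene past 1.5-fold (1.69% of 59, against 1.2% of all genes). With single arrays left out, 3 to 7 transporter genes rose and 2 to 5 fell: 3 rose without CDKL1 shRNA replicate 3, 4 rose without CDKL1 shRNA replicate 2 or control shRNA replicate 3, 3 fell without CDKL1 shRNA replicate 1 or 2 or control shRNA replicate 3, and 2 fell without control shRNA replicate 2. The groups did not overlap for 18 of the 59 genes (30.5%), 9 higher and 9 lower, against 35.7% of all genes. In RNA from whole cultures, fewer cells that express a gene and less RNA per cell cannot be told apart.

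**Figure D1:**
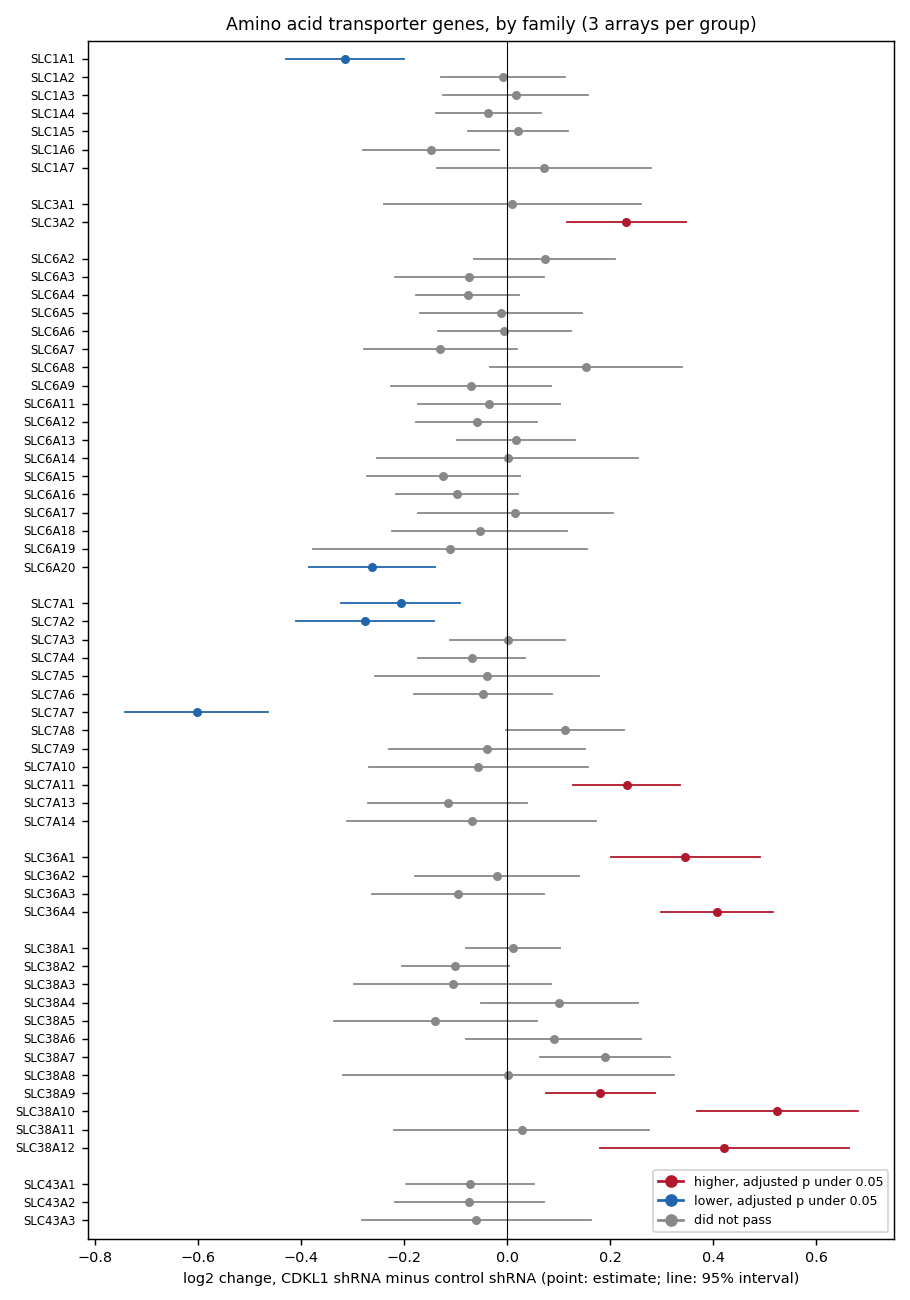
Log2 change of each of the 59 amino acid transporter genes on the horizontal axis (CDKL1 shRNA minus control shRNA, with the 95% interval of the limma fit), by family on the vertical axis. The 7 red genes rose and the 5 blue genes fell, with changes between -0.60 for SLC7A7 and 0.52 for SLC38A10, and the 47 grey genes lay between -0.15 and 0.19.

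By family, the called genes were spread as follows. SLC3A had 1 of 2 genes higher. SLC36A had 2 of 4 genes higher and SLC38A 3 of 12, with 0 lower in either family. SLC7A had 1 of 13 higher and 3 lower. SLC1A and SLC6A had 0 higher and 1 lower each, of 7 and 18 genes, and none of the 3 SLC43A genes passed (0 at an unadjusted p under 0.05). Family medians ran from -0.07 for SLC43A to 0.16 for SLC36A on the log2 scale. Differences between families were not tested.

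SLC3A2 encodes CD98, the heavy chain that carries several SLC7 light chains to the plasma membrane. It was at 11.86, 11.96 and 11.98 in CDKL1 shRNA arrays, against 11.73, 11.66 and 11.72 in control arrays. All CDKL1 shRNA arrays were above all control arrays. The rise was 1.17-fold (log2 change 0.23, SE 0.05, limma adjusted p = 0.0199), its 7 probe sets were all above 0 and 5 of them passed over all probe sets. It did not pass without control shRNA replicate 2 or 3 or CDKL1 shRNA replicate 2 or 3 (limma, adjusted p = 0.0583 to 0.0767). SLC3A1, the heavy chain of the kidney and gut cystine transporter, was at 5.39, 5.46 and 5.09 in CDKL1 shRNA arrays, against 5.27, 5.44 and 5.21 in control arrays, with overlapping groups and a log2 change of 0.01 (95% interval from -0.24 to 0.26), a sign that turned in several alternative fits.

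This start region of SLC3A2 is shown because it holds matches to motifs of amino acid and redox response. The gene's other start regions hold none of the motifs searched. Promoter windows run from 250 bases before to 50 bases after a start site (RefSeq, GRCh38.p14), are written 5' to 3' on the gene's strand, and have motif matches in capitals. They were searched on both strands for the ATF4 response element TGATGNAA, the antioxidant response element core TGACNNNGC bound by NRF2, and the CLEAR element core TCACGTG bound by TFEB. In this window, chr11:62881449-62881748 (plus strand), the antioxidant core begins at -37 and the ATF4 element, on the other strand, at 38, counted from the start site, whose first base is 1.
SLC3A2: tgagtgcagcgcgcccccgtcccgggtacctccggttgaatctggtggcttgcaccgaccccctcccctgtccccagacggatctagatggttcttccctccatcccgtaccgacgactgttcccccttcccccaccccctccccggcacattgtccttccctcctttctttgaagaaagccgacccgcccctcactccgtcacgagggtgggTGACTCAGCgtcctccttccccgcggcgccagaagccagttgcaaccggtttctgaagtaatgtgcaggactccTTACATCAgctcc

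SLC7A11 encodes xCT, the light chain that with CD98 takes up cystine in exchange for glutamate and so feeds glutathione synthesis. It was at 10.00, 10.07 and 10.06 in CDKL1 shRNA arrays, against 9.78, 9.85 and 9.82 in control arrays. The groups were fully apart, with a rise of 1.17-fold (log2 change 0.23, SE 0.04, limma adjusted p = 0.0134). Its 3 probe sets gave 0.23, 0.27 and 0.42, and 2 of them passed over all probe sets. It did not pass without CDKL1 shRNA replicate 3 (limma, adjusted p = 0.0559).

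SLC7A7 encodes y+LAT1, the CD98-linked exchanger that releases arginine and lysine from epithelial cells and is mutated in lysinuric protein intolerance. It showed the largest fall among the 59 genes, at 7.66, 7.60 and 7.74 in CDKL1 shRNA arrays, against 8.36, 8.20 and 8.25 in control arrays. Every CDKL1 shRNA array was below every control array by more than the range of either group. The gene was 1.52-fold lower (log2 change -0.60, SE 0.06, limma adjusted p = 0.00101) and passed without each single array, at -0.64 to -0.56. It was read by 1 probe set, so no other probe set could be compared. One of its 3 start regions, chr14:22819742-22820041 (minus strand), is shown for this fall and holds 1 antioxidant core, at -88.
SLC7A7: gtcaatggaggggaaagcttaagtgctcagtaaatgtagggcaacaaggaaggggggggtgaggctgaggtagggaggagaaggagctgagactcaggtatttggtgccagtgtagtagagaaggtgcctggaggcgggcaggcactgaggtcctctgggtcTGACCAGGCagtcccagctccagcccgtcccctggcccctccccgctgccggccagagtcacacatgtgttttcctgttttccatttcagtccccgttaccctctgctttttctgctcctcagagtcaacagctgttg

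No other light chain gene that pairs with SLC3A2 rose with a passed test. SLC7A5 encodes LAT1, the main leucine carrier of many cancers, and was at 11.03, 11.15 and 11.12 in CDKL1 shRNA arrays, against 11.36, 11.03 and 11.04 in control arrays. Its log2 change of -0.04 had a 95% interval from -0.26 to 0.18, so a change of the size of SLC3A2 upwards lay outside it and a fall of that size did not. Control shRNA replicate 1 stood above the other arrays, and without it the change was 0.07 (limma, adjusted p = 0.459). SLC7A6 (y+LAT2, -0.05) and SLC7A10 (Asc-1, -0.06) did not pass, nor did SLC7A8, which encodes the neutral amino acid carrier LAT2, although its groups did not overlap (0.11, limma adjusted p = 0.173). SLC7A9 and SLC7A13, light chains that pair with SLC3A1, had log2 changes of -0.04 and -0.12 at mean levels within the range of background controls, where no change can be read with confidence.

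The cationic amino acid transporters CAT-1 and CAT-2 need no heavy chain and bring arginine, lysine and ornithine into the cell. SLC7A1, the gene for CAT-1, was at 9.97, 9.94 and 10.05 in CDKL1 shRNA arrays, against 10.15, 10.23 and 10.20 in control arrays. It fell by 0.21 on the log2 scale (1.15-fold lower, SE 0.05, limma adjusted p = 0.0295), and the groups did not overlap. The call was lost without CDKL1 shRNA replicate 1 or 2 or control shRNA replicate 2 or 3 (limma, adjusted p = 0.0855 to 0.0989), after subtraction of array medians (adjusted p = 0.0712), and with the mean of its probe sets (adjusted p = 0.0877). Of its 4 probe sets 2 passed and 3 had a negative sign, and the dimmest, at 0.03, lay within the background range. SLC7A2, the gene for CAT-2, was at 8.48, 8.52 and 8.62 in CDKL1 shRNA arrays, against 8.75, 8.81 and 8.88 in control arrays. It was 1.21-fold lower with groups apart (log2 change -0.28, SE 0.06, limma adjusted p = 0.0179), with 3 of 4 probe sets negative, and was not called without CDKL1 shRNA replicate 1 or 2 or control shRNA replicate 2 or 3 (limma, adjusted p = 0.0567 to 0.0629). SLC7A3, for the related CAT-3, was at background level with a change of 0.00.

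The start region of SLC7A1, chr13:29595639-29595938 (minus strand), is shown beside that of SLC3A2 because it holds the same 2 kinds of match while the gene went the other way. The antioxidant core begins at -85 and the ATF4 element at 8.
SLC7A1: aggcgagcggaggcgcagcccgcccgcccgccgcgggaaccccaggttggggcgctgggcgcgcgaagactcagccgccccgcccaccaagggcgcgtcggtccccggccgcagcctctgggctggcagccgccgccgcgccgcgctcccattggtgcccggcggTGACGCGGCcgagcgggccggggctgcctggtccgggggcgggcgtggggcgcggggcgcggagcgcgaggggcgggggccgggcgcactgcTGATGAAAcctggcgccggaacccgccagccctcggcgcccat

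SLC1A1 encodes EAAT3, which takes up glutamate, aspartate and cysteine. It was at 9.74, 9.78 and 9.82 in CDKL1 shRNA arrays, against 10.04, 10.10 and 10.15 in control arrays, without overlap. It was 1.24-fold lower (log2 change -0.32, SE 0.05, limma adjusted p = 0.00592) and passed without each single array. Its other probe set had the same sign (-0.14) and did not pass. The main glutamine importer gene of proliferating cells, SLC1A5 (ASCT2), was at 10.59, 10.60 and 10.59 in CDKL1 shRNA arrays, against 10.56, 10.54 and 10.61 in control arrays. Its groups overlapped, and the log2 change of 0.02 had a 95% interval from -0.08 to 0.12, with a sign that turned after a further quantile normalisation (-0.01).

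SLC6A20 encodes SIT1, the sodium-coupled carrier of proline and other imino acids of the gut and kidney. It was at 7.85, 7.80 and 7.75 in CDKL1 shRNA arrays, against 8.10, 8.11 and 7.98 in control arrays. The groups were apart and the gene was 1.20-fold lower (log2 change -0.26, SE 0.05, limma adjusted p = 0.0156). The call was lost without CDKL1 shRNA replicate 3 or control shRNA replicate 2 (limma, adjusted p = 0.0627 and adjusted p = 0.0594), and with the mean of its 2 probe sets (adjusted p = 0.0728). The remaining 17 measured SLC6A genes, for carriers of monoamines, GABA, glycine, creatine, taurine and neutral amino acids, did not pass. The taurine transporter gene SLC6A6 was close to 0 (-0.01) by its brightest probe set. Of its 5 probe sets 3 were above 0 and 2 below, the highest at 0.25 (limma over all probe sets, adjusted p = 0.122). The creatine transporter gene SLC6A8 gave 0.15 with overlapping groups (limma, adjusted p = 0.252).

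**Figure D2:**
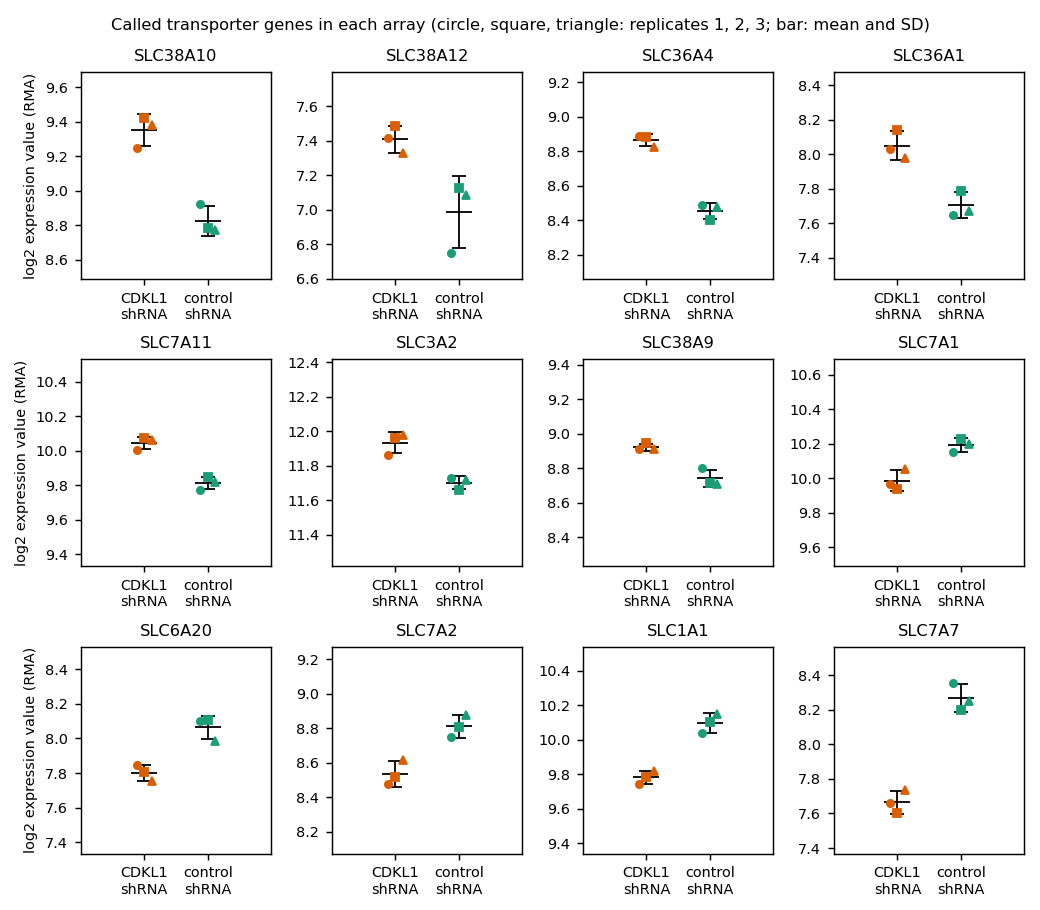
Log2 expression value of the 12 called genes in each array, CDKL1 shRNA left of control shRNA, with 1 symbol per array and the mean and SD of 3 arrays; each panel spans 1.2 log2 units. The groups do not overlap in any panel, and the widest gap is that of SLC7A7 (7.66, 7.60 and 7.74 in CDKL1 shRNA arrays, against 8.36, 8.20 and 8.25 in control arrays).

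Genes of SLC36 family carriers and of lysosomal carriers were among those that rose. SLC36A1 encodes PAT1, which moves glycine, alanine and proline with protons out of lysosomes and across the gut brush border. It was at 8.03, 8.14 and 7.98 in CDKL1 shRNA arrays, against 7.65, 7.79 and 7.67 in control arrays, a 1.27-fold rise without overlap (log2 change 0.35, SE 0.06, limma adjusted p = 0.00988). This call rests on 1 probe set, of the suffix that can bind related transcripts: its 5 other probe sets gave -0.04 to 0.20, none passed over all probe sets (unadjusted p under 0.05 for 1 of them), and the brightest probe set without such a suffix gave -0.02 (limma, adjusted p = 0.888). SLC36A2, its direct neighbour on chromosome 5, and SLC36A3, the next gene beyond it, had changes of -0.02 and -0.10 and did not pass.

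The second SLC36A1 start region, chr5:151447353-151447652 (plus strand), is shown because it holds 3 matches to the CLEAR element core, more than any other transporter window. They begin at -43, -9 and -8, and the last 2 are one palindrome read on both strands.
SLC36A1: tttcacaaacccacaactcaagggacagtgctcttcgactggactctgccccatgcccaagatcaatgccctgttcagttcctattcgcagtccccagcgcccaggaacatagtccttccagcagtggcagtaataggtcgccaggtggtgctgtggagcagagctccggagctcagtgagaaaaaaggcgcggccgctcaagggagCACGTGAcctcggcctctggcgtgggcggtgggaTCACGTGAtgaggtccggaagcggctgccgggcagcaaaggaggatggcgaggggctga

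SLC36A4 encodes PAT4, a high-affinity carrier of proline and tryptophan. It was at 8.89, 8.88 and 8.82 in CDKL1 shRNA arrays, against 8.49, 8.40 and 8.48 in control arrays. It rose 1.33-fold with groups well apart (log2 change 0.41, SE 0.05, limma adjusted p = 0.00174), in both of its probe sets and without each single array (0.38 to 0.43).

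SLC38A9 encodes the lysosomal arginine sensor that signals to mTORC1 through the Rag GTPases. It was at 8.91, 8.95 and 8.91 in CDKL1 shRNA arrays, against 8.80, 8.72 and 8.71 in control arrays. The groups did not overlap, and the rise of 1.13-fold was the smallest of the called changes (log2 change 0.18, SE 0.05, limma adjusted p = 0.0344). It passed without control shRNA replicate 1 and was lost without any of the 5 other arrays (limma, adjusted p = 0.0772 to 0.116), after a further quantile normalisation (adjusted p = 0.0564), and without probe sets of related transcripts (adjusted p = 0.0656), although its 3 probe sets all had a positive sign. SLC38A7, for a lysosomal glutamine and asparagine exporter, was at 7.72, 7.78 and 7.78 in CDKL1 shRNA arrays, against 7.51, 7.66 and 7.54 in control arrays. Its groups did not overlap, but the change of 0.19 did not pass (limma, adjusted p = 0.0532). Its 4 probe sets were split, 2 above 0 and 2 below. It passed without control shRNA replicate 2.

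SLC38A10, a less well characterised member of the family, showed the largest rise among the 59 genes. It was at 9.25, 9.42 and 9.38 in CDKL1 shRNA arrays, against 8.93, 8.78 and 8.77 in control arrays. This was 1.44-fold higher with no overlap (log2 change 0.52, SE 0.07, limma adjusted p = 0.00279), in both probe sets (0.29 in the other one) and without each single array. Its start region, chr17:81295258-81295557 (minus strand), is shown for the size of this rise and holds none of the 3 motifs in these 300 bases.
SLC38A10: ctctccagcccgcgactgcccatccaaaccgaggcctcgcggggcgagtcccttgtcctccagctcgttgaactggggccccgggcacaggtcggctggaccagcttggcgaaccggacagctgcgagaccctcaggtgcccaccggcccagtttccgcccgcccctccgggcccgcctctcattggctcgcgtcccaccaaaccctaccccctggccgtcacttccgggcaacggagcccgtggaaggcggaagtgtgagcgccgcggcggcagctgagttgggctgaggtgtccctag

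SLC38A12, also named TMEM104, is annotated as a member of the SLC38 family. It was at 7.41, 7.48 and 7.33 in CDKL1 shRNA arrays, against 6.75, 7.13 and 7.09 in control arrays. Control shRNA replicate 1 was the lowest by far, and the SD of the control group was 0.208, against 0.078 in the CDKL1 shRNA group. The rise was 1.34-fold (log2 change 0.42, SE 0.10, limma adjusted p = 0.032), and 0.30 without control shRNA replicate 1, where it still passed. It did not pass without CDKL1 shRNA replicate 1, 2 or 3 or control shRNA replicate 3 (limma, adjusted p = 0.0508 to 0.0943). Of its 3 probe sets 2 rose and 1 had the opposite sign (-0.09).

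The sodium-coupled system A carriers for glutamine and alanine did not pass. SLC38A1 was nearly level by its brightest probe set, at 11.89, 11.89 and 11.91 in CDKL1 shRNA arrays, against 11.89, 11.88 and 11.89 in control arrays. The log2 change of 0.01 by this probe set had a 95% interval from -0.08 to 0.10. Its 5 probe sets were split, 2 above 0 and 3 below, and none passed. A dimmer one, at a mean of 9.19, gave -0.40 without overlap of the groups (limma over all probe sets, adjusted p = 0.055). SLC38A2, which is induced by amino acid shortage, was at 11.38, 11.43 and 11.45 in CDKL1 shRNA arrays, against 11.48, 11.51 and 11.56 in control arrays. The groups did not overlap and the change was -0.10 (limma, adjusted p = 0.181). SLC38A1, SLC38A2 and SLC38A4 are direct neighbours on chromosome 12, and none of them passed.

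**Figure D3:**
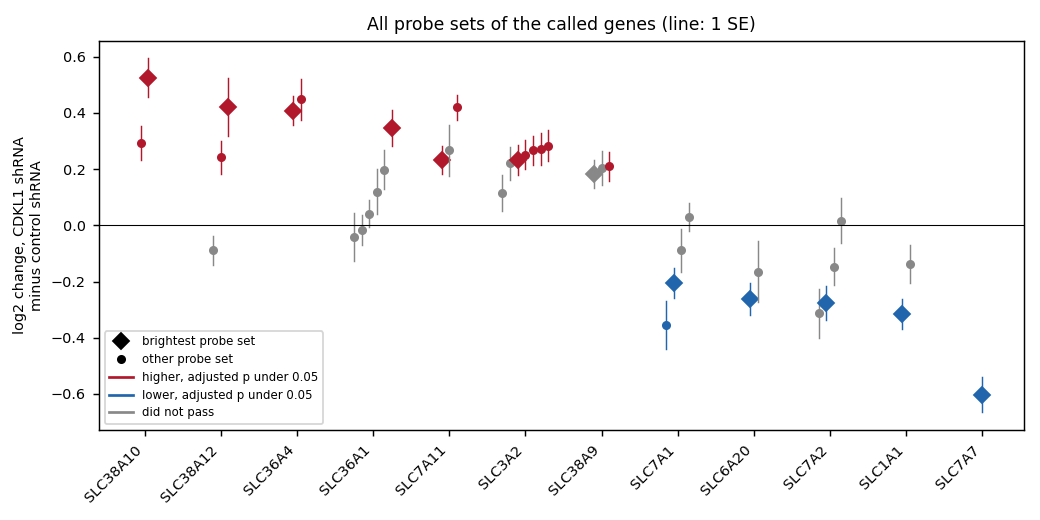
Log2 change of every probe set of the 12 called genes (vertical axis, CDKL1 shRNA minus control shRNA, line of 1 SE; diamonds mark the brightest probe set), coloured by the test over all 49293 probe sets. SLC3A2 has 7 probe sets above 0, whereas only the brightest of the 6 for SLC36A1 is red and SLC7A7 has 1.

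Of the 46 transporter genes with more than 1 probe set, 17 had all of them on 1 side of 0 and the rest were split. Of the 11 called genes with more than 1 probe set, 7 had all of them on 1 side of 0, and 6 of the 12 called genes had at least 2 probe sets past the test over all probe sets. Over all 169 probe sets of the transporter genes 13.6% passed, against 12.6% of all 49293 probe sets, with 10.1% against 7.38% higher and 3.55% against 5.24% lower. One gene that did not pass by its brightest probe set had others that did: SLC6A13, a GABA carrier gene, gave 0.33 and 0.30 through probe sets with means of 4.76 and 3.31, within the background range, while its brightest gave 0.02. Of the 59 genes 11 lay within the range of background controls, and none of the 12 called genes did. The 47 genes that did not pass lay between -0.15 and 0.19 on the log2 scale, and 2 of them had an unadjusted p under 0.05. The median half-width of the 95% intervals was 0.14 log2 units.

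Promoter windows were found for 45 of the 59 genes, 67 windows in all, as some genes have several start sites. SLC7A11 had no window, so its start region was not searched for the motifs. The ATF4 element was in 6 windows (8.96%), against 3.62% of all 35116 windows. These belonged to SLC1A3, SLC1A4, SLC1A5, SLC38A1, SLC3A2 and SLC7A1, of which SLC3A2 rose, SLC7A1 fell and the other 4 did not pass. The antioxidant core was in 7 windows (10.4%, against 13.3% of all) and the CLEAR core in 4 (5.97%, against 3.71%), those of SLC1A5, SLC36A1, SLC38A7 and SLC43A1. The ATF4 element and the antioxidant core were each in windows of genes that rose and of genes that fell. A match is only a run of letters, not a shown binding site.

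Genes around the transporters were read from 8 lists, compared with the 8.97% higher and 7.79% lower over all genes. Over the 8 lists 33 genes rose and 17 fell, where a gene found in several lists was counted once. No share was taken of this pooled count. With the ACTB covariate, which moved with the groups, 1 rose and 2 fell, all in the list of ATF4 pathway genes and stress kinases. In the list of amino acid sensing at the lysosome and mTORC1, 12 of 44 genes rose (27.3%) and 3 fell (6.82%), with a median log2 change of 0.05. LAMTOR3, a subunit of the Ragulator complex that anchors mTORC1 to the lysosome, rose 1.49-fold (log2 change 0.57, SE 0.05), NPRL2, a subunit of the GATOR complex that restrains mTORC1, rose 1.46-fold (0.54, SE 0.05), FNIP1, a partner of folliculin, rose by 0.33 and LAMTOR5, also of Ragulator, by 0.30 (limma, adjusted p = 7.00e-04 to 0.00432). The 3 that fell were LAMTOR2, also of Ragulator, NPRL3, also of GATOR, and EIF4EBP1. Their log2 changes were -0.33, -0.23 and -0.19 (limma, adjusted p = 0.0213 to 0.0386). The genes that rose hold both activators and inhibitors of mTORC1. Without CDKL1 shRNA replicate 1 or 3 or control shRNA replicate 2, 8, 7 and 7 of these genes rose, and 1 fell without any single array. FNIP1 did not pass by its brightest probe set without the suffixes of related transcripts (0.17, limma adjusted p = 0.257).

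Among amino acid and peptide carriers outside these families 5 of 25 genes rose (20%) and 2 fell (8%). CTNS, which exports cystine from lysosomes, rose 1.31-fold (log2 change 0.39, SE 0.05, limma adjusted p = 0.00261), and MFSD12, a carrier of cysteine into lysosomes, by 0.29. CTNS gave 0.14 and did not pass with the mean of its probe sets (limma, adjusted p = 0.0655). Of the mitochondrial carriers, SLC25A22, for glutamate, rose by 0.33 and SLC25A15, for ornithine, fell by 0.29. Without CDKL1 shRNA replicate 2 or control shRNA replicate 3, 3 genes of this list rose.

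In the list of glutathione and cystine use 3 of 23 genes rose (13%) and 2 fell (8.7%). GCLM, the modifier subunit of the rate-limiting enzyme of glutathione synthesis, rose 1.24-fold (log2 change 0.31, SE 0.04), the sulfiredoxin gene SRXN1 1.22-fold (0.29, SE 0.04) and the thioredoxin reductase gene TXNRD1 by 0.21, while the glutathione peroxidase gene GPX1 fell by 0.23 (limma, adjusted p = 0.00421 to 0.0169). TXNRD1 lost its call without CDKL1 shRNA replicate 1 or 3 or control shRNA replicate 2 or 3 (limma, adjusted p = 0.0534 to 0.0689), and 1 gene fell without any single array except control shRNA replicate 1.

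The list of ATF4 pathway genes and stress kinases had 6 of 32 genes higher (18.8%) and 5 lower (15.6%), with a median of 0.01. The stress-induced inhibitor genes DDIT4 and TRIB3 fell 1.98-fold and 1.63-fold (log2 changes -0.99 and -0.70), while the kinase gene EIF2AK3 and the transcription factor gene ATF5 rose (0.62 and 0.59 on the log2 scale; limma, adjusted p = 1.05e-04 to 0.00133). ATF4 drives several transporter genes, SLC7A11 and SLC3A2 among them. ATF4 itself did not pass (log2 change -0.10, limma adjusted p = 0.189), and its part in these changes was not tested.

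The enzyme lists were near the background in most counts. Serine, glycine and branched-chain enzymes had 1 of 21 genes higher (4.76%) and 3 lower (14.3%). The folate enzyme gene MTHFD1L fell by 0.36, and PHGDH, the first enzyme of serine synthesis, and SHMT1 by 0.28 each, while MTHFD2 rose by 0.27. Of 15 glutamine and glutamate enzymes ALDH18A1, for proline synthesis, rose by 0.33, GFPT1, the first enzyme of the hexosamine pathway, by 0.26, and the asparagine synthetase gene ASNS fell by 0.26. GFPT1 did not pass without CDKL1 shRNA replicate 1, 2 or 3 or control shRNA replicate 3 (limma, adjusted p = 0.0566 to 0.0907). Of 17 arginine, urea cycle and polyamine enzymes, the arginase gene ARG2 rose by 0.28 and the spermidine synthase gene SRM by 0.16, and OAZ2, an inhibitor of polyamine synthesis, fell by 0.16. SRM and OAZ2 lost their calls without any 1 of the 6 arrays (limma, adjusted p = 0.0647 to 0.14).

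Of 19 partners, ligases and kinases that act on the transporters 4 rose (21.1%) and 2 fell (10.5%). NEDD4L and NEDD4, ubiquitin ligases that take carriers off the cell surface, rose by 0.26 and 0.27, the transcription factor gene MYC by 0.24, and EPAS1, the gene of a hypoxia factor, fell by 0.23 (limma, adjusted p = 0.00687 to 0.0283). Without CDKL1 shRNA replicate 2 or 3 or control shRNA replicate 1 or 2, 2 genes rose. NEDD4 was lost without any of these 4 arrays (limma, adjusted p = 0.0558 to 0.0709), and EPAS1 without CDKL1 shRNA replicate 2 or 3 or control shRNA replicate 1 or 3 (adjusted p = 0.0733 to 0.0985) and with the mean of its probe sets (adjusted p = 0.281).

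**Figure D4:**
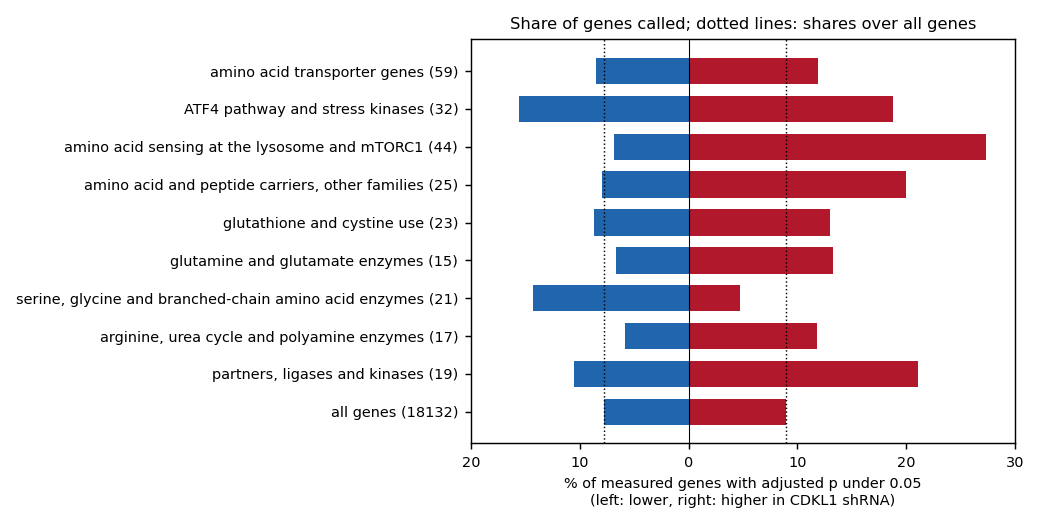
Share of measured genes that passed the test, higher (right) and lower (left) in CDKL1 shRNA arrays, for the transporter genes, 8 lists of related genes and all genes, with the number measured in brackets. The 59 transporter genes (11.9% higher, 8.47% lower) lie near the dotted lines of all 18132 genes (8.97% and 7.79%).

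**Figure D5:**
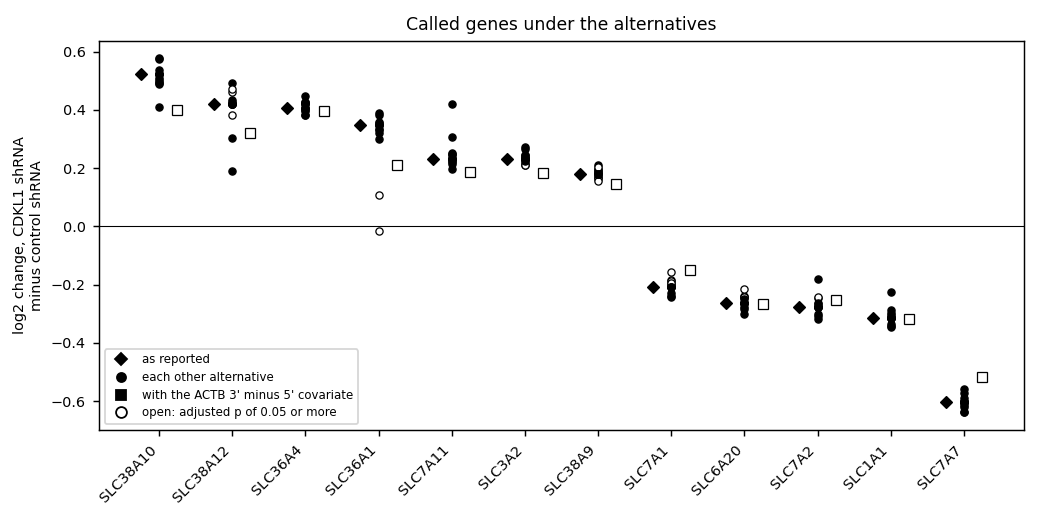
Log2 change of the 12 called genes as reported (diamond), under each other alternative (circles) and with the ACTB 3' to 5' covariate (square); filled symbols passed an adjusted p of 0.05. All 12 squares are open and on the same side of 0 as the diamonds, and SLC36A1 is the only gene with a symbol beyond 0 (-0.02, with probe sets of related transcripts left out).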

How the data were processed

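RNA of 6 samples of DLD1 cells was read on Affymetrix arrays, 1 colour and 1 array per sample. The authors deposited log2 expression values per probe set, made by RMA (background correction, quantile normalisation and summarisation of probes), per the submitters' processing notes; the genome build of the array annotation is not given in the sources used for this work. Of 49395 probe sets, 102 were controls, 44988 had 1 symbol, 1832 several and 2473 none in the platform annotation, of which the single-symbol ones were used, 44961 of them with an identifier found in RefSeq. Each gene was read from its single-symbol probe set of highest mean over the 6 arrays. Suffixes _s and _x mark probe sets that can bind related transcripts.

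Groups were compared with limma 3.58.1 (lmFit and eBayes, R 4.3.3, two-sided, group as the only term) over 18132 genes, and over 49293 probe sets where said, with Benjamini-Hochberg adjustment and a threshold of 0.05. Data were also simulated with these means and spreads, with 50 of 18132 genes changed at each fold, far fewer than were called here. Of genes changed 1.25-fold 64% were recovered, of those changed 1.5-fold 98%, and 10 unchanged genes were called. Recovery with a larger share of changed genes was not simulated. The number of arrays limits the precision.

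Values are given for every called transporter gene, the heavy chain genes with their measured light chain partners, SLC1A5, SLC38A9, and up to 4 called genes of smallest adjusted p per list. SLC36A2, SLC36A3, SLC38A1, SLC38A2, SLC38A4, SLC38A7, SLC6A6, SLC6A8, SLC6A13, SLC7A3, CD163, CD68, KRT20 and VIL1 were added after their values were seen, as were the antioxidant and CLEAR motifs. LAMTOR2, NPRL3, EIF4EBP1 and ATF4 were added in the same way. The members and lists were chosen with earlier results of these data known. The 15 alternatives were the replicate block, each array left out, further quantile normalisation, subtracted array medians, a mean over each gene's probe sets, no _s or _x probe sets, 2 filters on dim genes, a trended robust eBayes, and the ACTB 3' minus 5' covariate. Promoter windows come from RefSeq (GRCh38.p14).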

Additional observations from a re-analysis of the deposited data

How the results depend on the processing

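Across all genes 3040 were called, against 1803 with a replicate block, 943 with only genes above all background controls (1811 genes, 4 of them transporter genes), 219 with the ACTB 3' minus 5' covariate, 4201 with a trended robust eBayes, and 1633 to 2399 with single arrays left out. Genes called with a fold of at least 1.5 numbered 218, against 134 with the mean of all probe sets, 25 above all background controls, and 207 to 229 with single arrays left out. The number of transporter genes that rose was 7, against 4 with the replicate block, 1 above all background controls, 0 with the covariate and 3 to 7 with single arrays left out. The number that fell was 5, against 3 with the mean of all probe sets, 1 above all background controls, 0 with the covariate and 2 to 5 with single arrays left out. The 5 genes that fell all had means below the highest background control (10.74), so that filter removed them. The 1 lower gene above it had not passed in the fit over all genes. The median over the transporter genes, -0.04, was -0.0852 with the covariate and -0.0633 to -0.0137 with single arrays left out. Over the 8 lists, 33 genes rose and 17 fell, against 12 that rose above all background controls, 1 and 2 with the covariate, 9 that fell with the replicate block, and 22 to 28 and 10 to 11 with single arrays left out. Fewer arrays or genes enter the leave-one-out fits and the filter on dim genes; for the other changes the cause was not tested. CDKL1 ran from -0.29 to -0.12 with single arrays left out.

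Signs turned for SLC1A5 after further quantile normalisation (-0.0117) and for SLC36A1 without _s and _x probe sets (-0.0157). With single arrays left out, SLC7A5 ran from -0.0957 to 0.0688, SLC7A9 from -0.117 to 0.0474, SLC7A10 from -0.127 to 0.0501 and SLC3A1 from -0.0652 to 0.122. SLC3A1 was at -0.0397 with the mean of all probe sets, -0.273 without _s and _x probe sets and -0.196 with the covariate. Whether replicate numbers pair the samples is not stated in the labels. Deviations from the group means correlated at -0.03, -0.12 and 0.07 for replicates 1, 2 and 3. Between arrays of different numbers they correlated at -0.10 to 0.12. With 3 arrays per group these values cannot settle whether samples were handled in pairs. Under the block SLC3A2, SLC7A1, SLC38A9 and SLC38A12 were not called (limma, adjusted p = 0.0649, 0.0757, 0.0912 and 0.0517). A filter on genes above background controls of 10 to 16 G or C bases, chosen after seeing the data, left 14900 genes and 48 transporter genes, of which 8 rose and 5 fell.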
